A study of Mus musculus with 12 samples.

Results

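The 9 genes described here encode the proteins that bind, make, read and clear retinoic acid in the cell: Crabp1 and Crabp2, Aldh1a1, Aldh1a2 and Aldh1a3, Rara, Rarb and Rarg, and Cyp26b1. They were chosen by name because Crabp1 falls strongly where Sos1 is lost, so the level of Crabp1 in the groups that lack Sos1 is given as a description, with no test. Each of the 9 has 1 probe set, out of 29129 probe sets and 19505 named genes on the arrays. The series used primary embryonic fibroblasts of C57/BL6 mice, isolated from E13.5 embryos, grown at low passage in serum and harvested before confluence. The 12 arrays form 4 groups of 3: Sos1/2DKO, which lacks both Sos1 and Sos2; Sos1KO; Sos2KO; and wild type (WT). All 4 groups, WT included, had been treated with 4-hydroxytamoxifen, a metabolite of tamoxifen, for 12 days, and how the deletions were made is not given in the sources used here. Sos1 and Sos2 encode exchange factors that load Ras with GTP downstream of growth factor receptors. Arrays of a group are marked as biological replicates, with no embryo or litter named for a culture, so each p-value rests on the spread from culture to culture.

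Retinoic acid is made from vitamin A: retinol is oxidised to retinal, and the retinaldehyde dehydrogenases of the Aldh1a family oxidise retinal to retinoic acid. In the nucleus it binds the receptors Rara, Rarb and Rarg, which pair with RXR on DNA, while Crabp1 and Crabp2 carry it in the cytosol and Cyp26 enzymes hydroxylate it for disposal. In embryonic mesenchyme this pathway is known for patterning the limbs, the face and the hindbrain.

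The receptors bind direct repeats of a short core motif, and 3 promoters are shown to let the reader see where such letters lie beside the genes whose levels follow. The core AGGTCA was searched on both strands together with its variants AGTTCA and, in the same way, GGGTCA as well as the variant GGTTCA in windows from 250 bases before to 50 bases after the start, taken from RefSeq on GRCm38.p6. Of the 9 genes, 7 had windows in that table, 12 in all. Capitals mark every core found, and each sequence runs 5′ to 3′ along the strand of its gene.
Crabp1, chr9:54764498-54764797, + strand: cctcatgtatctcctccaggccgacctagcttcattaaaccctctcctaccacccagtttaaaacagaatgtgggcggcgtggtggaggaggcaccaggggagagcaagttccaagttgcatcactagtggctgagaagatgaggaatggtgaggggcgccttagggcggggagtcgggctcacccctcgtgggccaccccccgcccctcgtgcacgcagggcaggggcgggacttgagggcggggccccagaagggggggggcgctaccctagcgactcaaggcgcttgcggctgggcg
Aldh1a1, chr19:20601718-20602017, + strand: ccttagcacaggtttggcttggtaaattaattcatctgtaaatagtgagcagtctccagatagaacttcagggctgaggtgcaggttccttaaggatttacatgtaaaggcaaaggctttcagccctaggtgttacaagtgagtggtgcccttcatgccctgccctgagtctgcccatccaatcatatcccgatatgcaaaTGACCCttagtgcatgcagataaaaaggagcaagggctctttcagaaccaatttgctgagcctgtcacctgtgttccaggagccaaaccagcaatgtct
Rarb, chr14:16575427-16575726, − strand: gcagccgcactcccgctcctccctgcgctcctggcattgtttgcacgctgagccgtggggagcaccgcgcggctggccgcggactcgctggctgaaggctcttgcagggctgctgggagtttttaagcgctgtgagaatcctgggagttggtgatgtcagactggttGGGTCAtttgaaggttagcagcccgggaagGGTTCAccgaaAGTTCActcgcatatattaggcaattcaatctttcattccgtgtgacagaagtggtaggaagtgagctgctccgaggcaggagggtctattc
The Rarb window held 3 cores, of which GGTTCA, then further on AGTTCA, with 5 bases between them, formed a direct repeat from -53 to -37 relative to the start. Such a repeat with a gap of 5 was present in 32 of the 32851 promoter windows of the table (0.0974%), whereas 43.7% of them held at least 1 core. Repeats with a gap of 1 or 2, found in 0.222% and 0.268% of windows, occurred in none of the 12. The Aldh1a1 window held 1 core, at -49 to -44 on the opposite strand, and the other Aldh1a1 window held none. In the Crabp1 window none of these letters occurred. Rara had cores in 2 of its 4 windows and Rarg in 1 of its 2, and the windows of Aldh1a2 and Cyp26b1 held none.

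Fibroblast identity and genotype were checked first. Sos1 lay between 7.13 and 7.96 in the 6 arrays of Sos1/2DKO and Sos1KO and between 8.77 and 9.38 in the 6 arrays of Sos2KO and WT, on the log2 scale on which all levels here are given. Likewise Sos2 lay between 7.56 and 8.03 in Sos1/2DKO and Sos2KO and between 8.65 and 9.23 in Sos1KO and WT. Where the probes of either gene lie relative to the deleted stretch was not analysed here. Of the 10 fibroblast markers measured, such as Col1a1 and Vim, 9 were above the guide to weak signal on every array. That guide is the 75th percentile of 5222 intron controls, 5.01 to 5.76 across arrays. It is no detection call, but the size of a change is uncertain below it. The fibroblast markers were not all level across the groups. Thy1 differed by -1.54 between Sos1/2DKO and WT (adjusted p = 0.0183 in limma) and by -2.07 between Sos1/2DKO and Sos2KO (adjusted p = 0.00752). Of the 10 it was the only 1 under 0.05 in either comparison, beside 5.94% and 6.14% of all genes. Lum was higher in Sos1/2DKO than in WT (2.55), with an adjusted p of 0.107 in limma. A pair of technical features follows the groups in part: the poly-A spike-in Dap was at 6.05 to 9.32 on all 3 Sos2KO arrays, Sos1KO replicate 3 and Sos1/2DKO replicate 1, and at 3.59 to 3.82 on the other 7 arrays. The high-GC background controls were at 7.97 to 9.0 in Sos2KO and 7.70 to 7.96 in WT. Both features thus separate the Sos2KO arrays from the WT arrays, but the high-GC controls only narrowly. These controls were at 7.968 on Sos2KO replicate 3 and 7.957 on WT replicate 2, with Sos2KO replicates 1 and 2 at 8.85 and 9.0. Within that pair of groups the spike-in cannot be told apart from the genotype, and the high-GC background can be only in part.

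**Figure D1:**
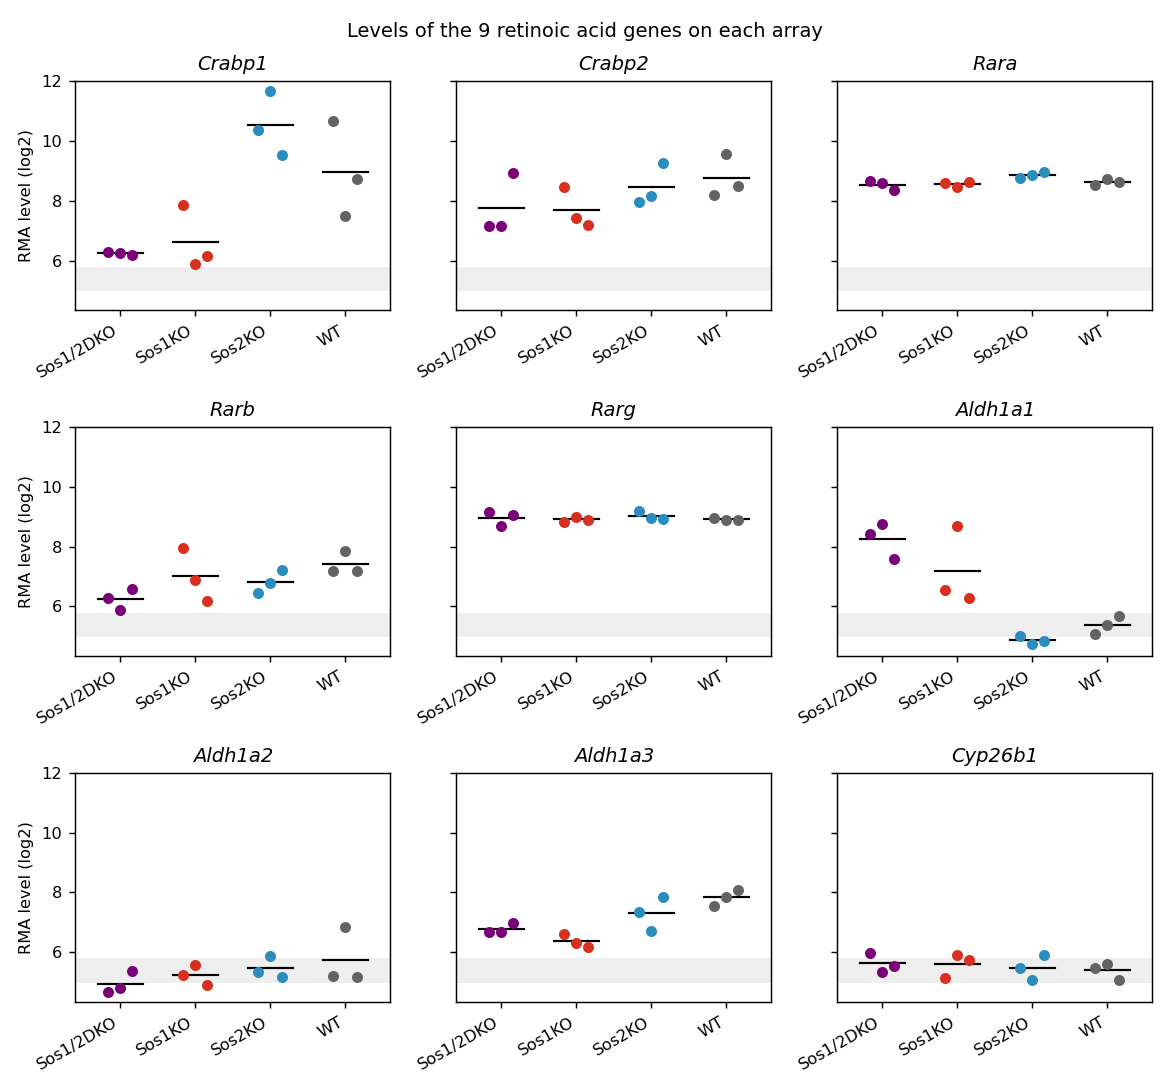
RMA level (log2, vertical axis) of each gene on the 12 arrays, with Sos1/2DKO, Sos1KO, Sos2KO and WT from left to right; points are arrays, lines are group means and the grey band is the range of the guide to weak signal (5.01 to 5.76). Crabp1 lies at 6.20 to 6.29 in Sos1/2DKO and at 9.53 to 11.65 in Sos2KO, Aldh1a1 shows the opposite order, and Rara and Rarg stay within narrow ranges.

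Crabp1, the cytosolic carrier, was low on nearly every array that lacked Sos1. Its level was 6.29, 6.26 and 6.20 in Sos1/2DKO, 7.85, 5.88 and 6.16 in Sos1KO, 10.38, 11.65 and 9.53 in Sos2KO, and 10.66, 7.48 and 8.74 in WT. The 3 Sos1/2DKO arrays were nearly alike (6.25 ± 0.04, SD, n = 3) and the 3 WT arrays were spread widely (8.96 ± 1.60, SD, n = 3). Sos1KO and WT overlapped, since Sos1KO replicate 1 stood above WT replicate 2. The other pairs of a group without Sos1 and a group with it did not overlap. Crabp1 was 6.53-fold lower in Sos1/2DKO than in WT (log2 difference -2.71, SE 0.72) and 5.03-fold lower in Sos1KO than in WT (-2.33, SE 0.72). Without WT replicate 1 the Sos1KO difference from WT was -1.48, and without WT replicate 2 it was -3.07. Among arrays without the spike-in (2 of Sos1/2DKO, 2 of Sos1KO, 3 of WT) the differences from WT were -2.73 for Sos1/2DKO and -2.09 for Sos1KO. Against Sos2KO, comparisons with no WT array in them, Crabp1 was 19.3-fold lower in Sos1/2DKO (-4.27, SE 0.72; -4.23 among arrays with the spike-in, 1 of them Sos1/2DKO) and 14.9-fold lower in Sos1KO (-3.89, SE 0.72; -4.36 among arrays with the spike-in, 1 of them Sos1KO). In bulk RNA, fewer cells of a type that carries Crabp1 and less Crabp1 RNA per cell cannot be told apart.

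Crabp1 was not called in Sos2KO against WT, in Sos1/2DKO against Sos1KO or in the interaction of the deletions. The latter comparisons draw on the groups without Sos1 whose low Crabp1 led to its choice. Their p-values are therefore not independent of that choice. In Sos2KO it stood 1.56 above WT (SE 0.72, 95% interval -0.0014 to 3.13), with an adjusted p of 0.359 in limma with Benjamini-Hochberg adjustment over all genes. Adding the loss of Sos2 to that of Sos1 gave a difference of -0.38 (SE 0.72, adjusted p = 0.922 in limma) between Sos1/2DKO and Sos1KO. This value changed sign when Sos1KO replicate 1 was left out (0.23). For the interaction of the 2 deletions, which asks whether the difference between Sos1/2DKO and Sos2KO departs from that between Sos1KO and WT, the value was -1.94 (SE 1.02, 95% interval -4.15 to 0.27, adjusted p = 0.907 in limma).

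Crabp2, which delivers retinoic acid to its receptors in the nucleus, had levels of 7.14, 7.17 and 8.92 in Sos1/2DKO, 8.45, 7.44 and 7.19 in Sos1KO, 7.97, 8.17 and 9.25 in Sos2KO, and 8.21, 9.56 and 8.49 in WT. In each of the 2 groups without Sos1, 2 arrays were low and 1 lay among the values of the other groups. The difference was -1.01 (SE 0.52, adjusted p = 0.310 in limma) for Sos1/2DKO against WT and -1.06 (SE 0.52, adjusted p = 0.498) for Sos1KO against WT, so neither was called. Between Sos2KO and WT it was -0.29 (95% interval -1.42 to 0.84).

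Aldh1a1, one of the enzymes that make retinoic acid, was higher in Sos1/2DKO than in Sos2KO and WT, and higher in Sos1KO than in Sos2KO. The levels were 8.42, 8.75 and 7.59 in Sos1/2DKO, 6.56, 8.70 and 6.28 in Sos1KO, 5.03, 4.73 and 4.84 in Sos2KO, and 5.09, 5.39 and 5.69 in WT. All 6 arrays without Sos1 lay above all 6 arrays with it. The 3 Sos2KO arrays and 1 WT array were below the guide to weak signal, so the folds are also given with each dim array raised to that guide. The difference between Sos1/2DKO and WT was 2.86 (SE 0.50, adjusted p = 0.00781 in limma), an estimate of 6.86-fold with the guide as a floor. Among arrays without the spike-in (2 of Sos1/2DKO, 3 of WT) it was 2.78 (adjusted p = 0.0600 in limma). Sos1/2DKO exceeded Sos2KO by 3.39 (SE 0.50, adjusted p = 0.00624 in limma), or 8.88-fold with that floor. Sos1KO exceeded Sos2KO by 2.31 (SE 0.50, adjusted p = 0.0279 in limma), or 4.22-fold with that floor. That call was lost under 9 of 19 alternative settings. The difference was 1.94 with the spike-in term (adjusted p = 0.172 in limma) and 1.41 among arrays with the spike-in, 1 of them Sos1KO. It was 1.55 to 2.76 when any 1 of 4 of the 6 arrays was left out. Between Sos1KO and WT the difference of 1.79 (SE 0.50, 95% interval 0.71 to 2.86, adjusted p = 0.122 in limma) was not called. With the floor it was 3.26-fold, and without Sos1KO replicate 2 the log2 difference was 1.03. Over both Sos2 backgrounds together the loss of Sos1 went with a difference of 2.59 (SE 0.35, adjusted p = 0.00146 in limma). The value for Sos1/2DKO against Sos1KO was 1.07 (95% interval -0.00013 to 2.15, adjusted p = 0.692 in limma) and the interaction was 1.60 (SE 0.70, adjusted p = 0.907 in limma).

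Aldh1a7, a close paralogue of Aldh1a1 in the mouse, had levels of 6.77 to 9.40 in Sos1/2DKO, 5.84 to 8.88 in Sos1KO, 5.07 to 5.94 in Sos2KO and 5.37 to 5.84 in WT. Its difference between Sos1/2DKO and WT was 2.57 (SE 0.68, adjusted p = 0.0444 in limma). Whether the probes of each gene also take up RNA of the other was not tested, so the values of Aldh1a1 may hold signal of both. It was named after its values were seen.

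Aldh1a3, another retinoic acid-making enzyme, was lower in Sos1KO and in Sos1/2DKO than in WT. Its levels were 6.67, 6.67 and 6.97 in Sos1/2DKO, 6.61, 6.30 and 6.18 in Sos1KO, 7.36, 6.70 and 7.84 in Sos2KO, and 7.56, 7.85 and 8.09 in WT. All 3 WT arrays lay above all 6 arrays without Sos1, whereas Sos2KO replicate 2 lay among the Sos1/2DKO arrays. Sos1KO was lower than WT by 1.47 on the log2 scale (log2 difference -1.47, SE 0.25, adjusted p = 0.0322 in limma), a 2.77-fold difference. For Sos1/2DKO against WT the difference was -1.06 (SE 0.25, adjusted p = 0.0280 in limma), a call lost under 9 of 19 alternative settings, among them any 1 WT array left out. The call for Sos1KO against WT was lost when any 1 of 5 of its 6 arrays was left out, with differences of -1.61 to -1.34, and was kept without Sos1KO replicate 1. Among arrays without the spike-in (2 of Sos1KO, 3 of WT) it was -1.38 (adjusted p = 0.103 in limma). Against Sos2KO the differences were -0.94 for Sos1KO (SE 0.25, adjusted p = 0.0576 in limma) and -0.53 for Sos1/2DKO (SE 0.25, adjusted p = 0.246), neither of them called. Over both Sos2 backgrounds the difference was -1.0 (SE 0.18, adjusted p = 0.00413 in limma). Between Sos2KO and WT it was -0.54 (95% interval -1.08 to 0.01, adjusted p = 0.368 in limma).

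Aldh1a2, the main retinoic acid-making enzyme of early embryonic mesoderm, was near the guide to weak signal. It measured 4.68, 4.80 and 5.38 in Sos1/2DKO, 5.25, 5.57 and 4.90 in Sos1KO, 5.35, 5.87 and 5.18 in Sos2KO, and 5.22, 6.84 and 5.16 in WT. Of the 12 arrays, 7 were below the guide, and WT replicate 2 was the highest array. The groups overlapped, and the difference between Sos1/2DKO and WT was -0.78 (SE 0.39, adjusted p = 0.285 in limma).

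Cyp26b1, which hydroxylates retinoic acid and so ends its action, was also close to the guide and below it on 3 arrays. Its levels were 5.99, 5.35 and 5.55 in Sos1/2DKO, 5.14, 5.91 and 5.73 in Sos1KO, 5.46, 5.07 and 5.90 in Sos2KO, and 5.48, 5.61 and 5.08 in WT. The 4 groups overlapped. Its difference was 0.24 (95% interval -0.33 to 0.80) for Sos1/2DKO against WT and 0.20 (95% interval -0.36 to 0.77) for Sos1KO against WT.

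Among the receptors, Rara and Rarg had narrow ranges and Rarb a wider one. Rara, the most broadly expressed of them in the mouse, was at 8.66, 8.61 and 8.35 in Sos1/2DKO, 8.59, 8.47 and 8.64 in Sos1KO, 8.75, 8.86 and 8.96 in Sos2KO, and 8.54, 8.73 and 8.63 in WT. All 3 Sos2KO arrays were above all other arrays. The gap was small: the difference was -0.32 (95% interval -0.62 to -0.02, adjusted p = 0.196 in limma) for Sos1/2DKO against Sos2KO and 0.23 (95% interval -0.08 to 0.53) for Sos2KO against WT. In Rarg, a receptor known for its part in cartilage and skin, the levels were 9.16, 8.68 and 9.07 in Sos1/2DKO, 8.83, 9.01 and 8.90 in Sos1KO, 9.20, 8.96 and 8.93 in Sos2KO, and 8.96, 8.89 and 8.89 in WT. The groups overlapped, and the interval of the difference was -0.28 to 0.39 for Sos1/2DKO against WT and -0.34 to 0.33 for Sos1KO against WT. The SD of Rara over the 12 arrays was larger than that of 11% of the 19505 genes, and that of Rarg larger than that of 5.43%.

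Rarb, whose own promoter carries the direct repeat shown above and which is a classic target of retinoic acid, varied more. It was at 6.30, 5.89 and 6.58 in Sos1/2DKO, 7.94, 6.89 and 6.18 in Sos1KO, 6.46, 6.77 and 7.22 in Sos2KO, and 7.17, 7.87 and 7.18 in WT. The Sos1/2DKO arrays were all below the WT arrays, and the Sos1KO arrays spanned both. The difference between Sos1/2DKO and WT was -1.15 (SE 0.37, adjusted p = 0.0988 in limma) and was not called, although it passed in a fit of those 2 groups alone (adjusted p = 0.0475 in limma). Sos1KO against WT gave -0.40 (95% interval -1.22 to 0.41) and Sos2KO against WT gave -0.59 (95% interval -1.40 to 0.22).

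**Figure D2:**
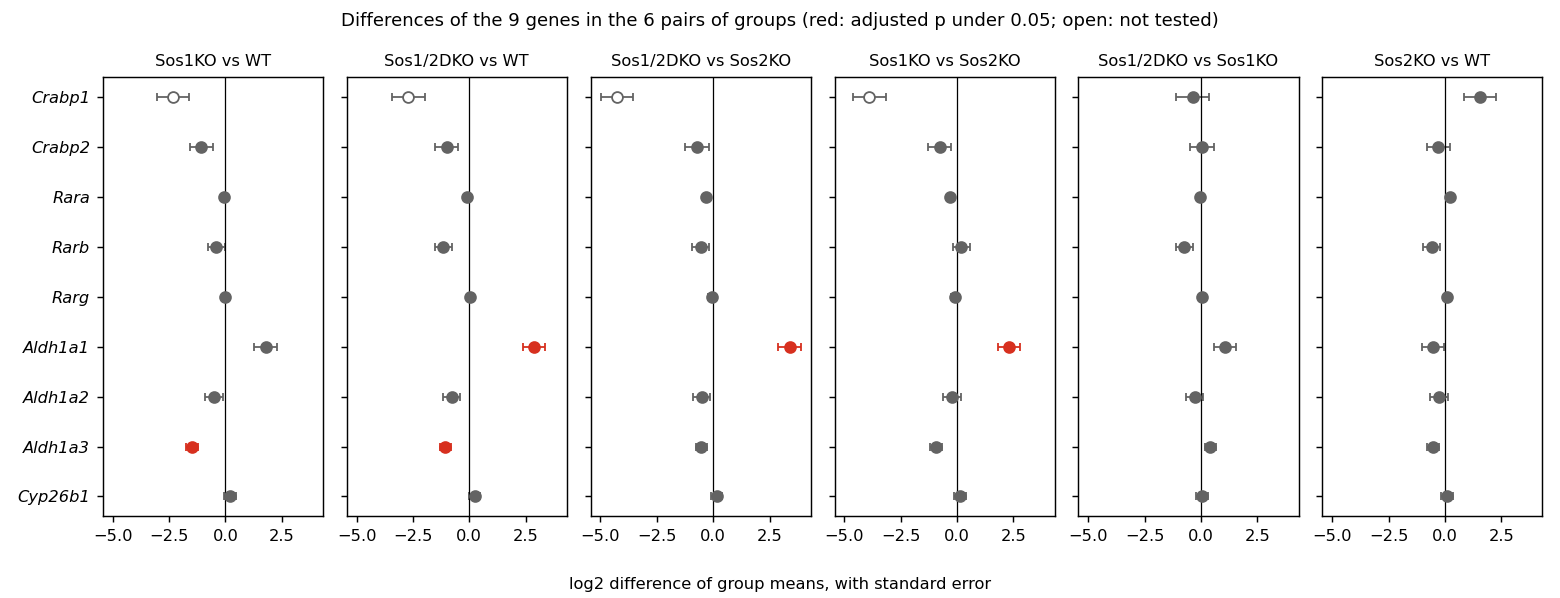
Log2 difference of group means (horizontal axis) with its standard error for the 9 genes, down the page, in the 6 pairs of groups; red points have a limma adjusted p under 0.05 and open points were not tested. Aldh1a1 reaches 2.86 and 3.39 for Sos1/2DKO against WT and against Sos2KO, Aldh1a3 lies at -1.47 for Sos1KO against WT, and no gene is called in the 2 right-hand panels.

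The counts over the 9 genes follow, with a call set at an adjusted p under 0.05 and the share of all 19505 genes called beside each. Crabp1 is not counted where Sos1 is lost, and nothing is read from the counts of those comparisons, since the set was selected on the loss of Sos1. In Sos1KO against WT, 1 of 8 genes was called (Aldh1a3), against 0.620% of all genes. For Sos1/2DKO against WT, 2 of 8 were called (Aldh1a1 higher, Aldh1a3 lower), against 5.94% of all genes, and both comparisons rest on the same WT arrays. Aldh1a1 was the 1 gene of 8 called in Sos1/2DKO against Sos2KO, where 6.14% of all genes were called, and in Sos1KO against Sos2KO, where 4.29% were. Over both Sos2 backgrounds, 2 of 8 were called, against 10.3%. The median log2 difference of the 8 genes was -0.24 for Sos1KO and -0.44 for Sos1/2DKO, each against WT, beside 0.01 and 0.05 over all genes.

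Loss of Sos2 alone gave no call among the 9 genes, as 0% of all genes were called in Sos2KO against WT by limma, although 2711 of all genes and 0 of the 9 had an unadjusted p under 0.05. Without Sos2KO replicate 3, 720 of all genes and 0 of the 9 were called there. In that comparison the spike-in and the genotype divide the arrays alike. Between Sos1/2DKO and Sos1KO 0 of 9 were called in limma, against 0.00513% of all genes (1 gene). At an unadjusted p under 0.05 there were 0 of the 9 and 1404 of all genes. For the interaction 0 of 9 and 0% of all genes were called in limma. Aldh1a1 and Aldh1a3 were among the 962 genes with an unadjusted p under 0.05 there.

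The tables deposited by the authors list probe sets at an adjusted p up to 0.25. In the authors' deposited table for Sos1KO against WT, Aldh1a1 (adjusted p 0.247) and Aldh1a3 (0.0650) are listed. For Sos1/2DKO against WT the authors' deposited table lists Aldh1a1 (adjusted p 0.0246), Aldh1a3 (0.0573), Rarb (0.0961) and Crabp1. The adjusted p of Crabp1 is left out here, since that gene was chosen for its low level without Sos1. In the authors' deposited table for Sos2KO against WT none of the 9 is listed. With the present fit and a cutoff of 0.25, the genes called were Aldh1a1 and Aldh1a3 in Sos1KO against WT (2 of 8, with 5.70% of all genes). They were Rarb, Aldh1a1 and Aldh1a3 in Sos1/2DKO against WT (3 of 8, with 19.6%). Against Sos2KO, Sos1/2DKO gave Rara, Aldh1a1 and Aldh1a3 (3 of 8, with 23.7%) and Sos1KO gave Aldh1a1 and Aldh1a3 (2 of 8, with 22.0%). Over both Sos2 backgrounds Crabp2, Aldh1a1 and Aldh1a3 passed (3 of 8, with 25.1%). None of the 9 passed in Sos2KO against WT (0% of all genes), in Sos1/2DKO against Sos1KO (0.00513%) or in the interaction (0%). The authors' deposited enrichment table for genes lower in Sos1/2DKO counts 57 of 229 genes under the term Signaling by Nuclear Receptors (log10 q -15.9), with Crabp1, Aldh1a3 and Rarb among them. In the authors' deposited enrichment table for genes lower in Sos1KO the count was 53 of 229 (log10 q -16.5), with Aldh1a3 as the single member present. Both counts thus rest mostly on genes outside the 9, which were not examined here. Nothing about retinoic acid is read from these q-values.

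Among the markers of other cell types, those of chondrocytes were higher on most arrays without Sos1, as Aldh1a1 was, though not in the same order. The mean level of 7 chondrocyte markers was 8.36, 7.76 and 6.55 in Sos1/2DKO, 5.91, 7.40 and 7.13 in Sos1KO, 5.91 to 6.06 in Sos2KO and 5.97 to 6.07 in WT. Of the 7, 3 were higher in Sos1/2DKO than in WT at an adjusted p under 0.05 in limma (5.94% of all genes called), 2 in Sos1/2DKO against Sos2KO (6.14%) and 0 in Sos1KO against WT (0.620%). The 3 were Comp (3.06, adjusted p = 0.0214), Hapln1 (2.96, adjusted p = 0.0482) and Col9a1 (1.07, adjusted p = 0.0145), which encode proteins of the cartilage matrix. Acan, Col2a1 and Sox9 reached 9.71, 8.69 and 10.33 on the highest Sos1/2DKO array, with no call, and Matn1 was below the guide to weak signal on all 12 arrays. On Sos1KO replicate 1 the chondrocyte mean was within the range of Sos2KO and WT, and Aldh1a1 was at 6.56. On Sos1KO replicate 3 that mean was 7.13, and Aldh1a1 was at 6.28, its lowest level in Sos1KO. With the marker mean as a term, chosen after seeing the data, the Aldh1a1 difference was 1.80 for Sos1/2DKO against WT (adjusted p = 0.201 in limma) and 2.30 against Sos2KO (adjusted p = 0.104), and that of Aldh1a3 was -0.71 for Sos1/2DKO against WT (adjusted p = 0.374). The same term gave -0.32 for Rarb (adjusted p = 0.784 in limma, beside -1.15 without it) and 0.48 for Crabp2 (beside -1.01), both for Sos1/2DKO against WT. The Crabp1 difference was then -1.95 for Sos1/2DKO and -1.94 for Sos1KO, each against WT. The part of chondrocyte-like cells in these differences was not tested. For macrophages, the mean of 10 markers was 5.50 to 6.38 in Sos1/2DKO, 6.40 to 7.26 in Sos1KO, 5.21 to 5.94 in Sos2KO and 5.96 to 7.55 in WT. Of the 7 endothelial markers 4, Pecam1 and Cdh5 among them, were below the guide on every array. In Sos1/2DKO against WT 2 of the 7 were called in limma, beside 5.94% of all genes. Erg, which cartilage cells also make, was higher (2.43, adjusted p = 0.0143), at 7.23 to 9.28 in Sos1/2DKO and 5.44 to 6.14 in WT. Emcn was lower (-2.14, adjusted p = 0.0203), at 4.36 to 5.74 in Sos1/2DKO and 6.19 to 7.76 in WT. Of the 6 epithelial markers 1 was called in that comparison, Krt18 (-1.99, adjusted p = 0.0172 in limma). Of the 6 neuronal markers 1 was called, Tubb3 (-1.40, adjusted p = 0.00652 in limma). The macrophage, mesothelial, neural crest and muscle markers gave no call there.

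**Figure D3:**
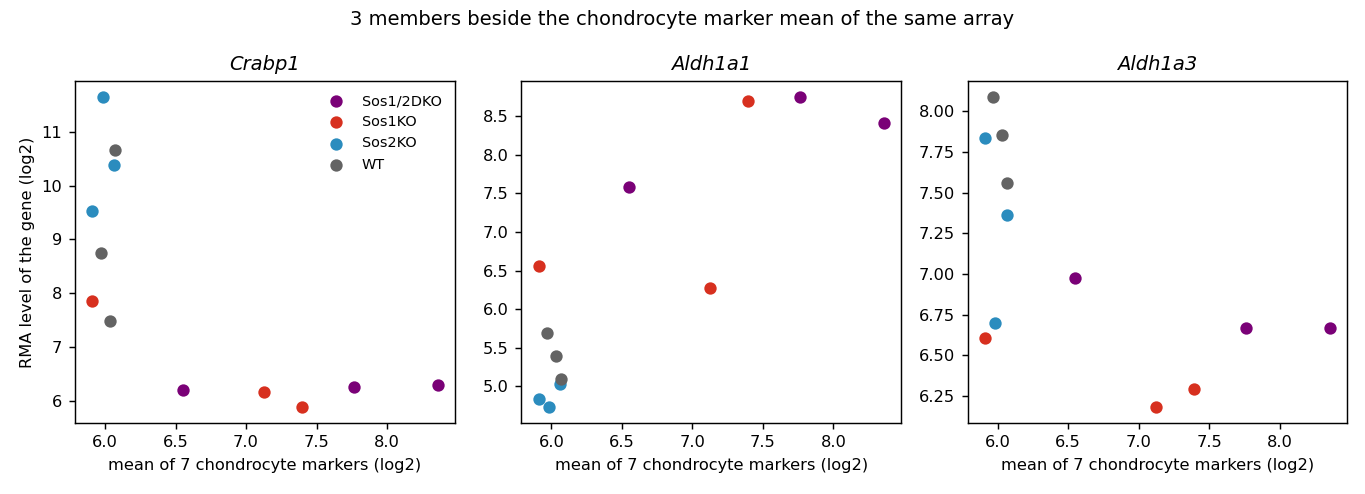
RMA level (log2, vertical axis) of Crabp1, Aldh1a1 and Aldh1a3 on each array against the mean log2 level of 7 chondrocyte markers on the same array (horizontal axis), coloured by group. The Sos2KO and WT arrays lie between 5.91 and 6.07 on the horizontal axis while Crabp1 ranges from 7.48 to 11.65 among them, and the Sos1/2DKO arrays spread from 6.55 to 8.36 with Crabp1 at 6.20 to 6.29.

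The genes around these 9 in the retinoid pathway were taken from 7 lists with 51 other genes, of which 44 were measured. Of the 44, 6 were called by limma in Sos1/2DKO against WT (4 higher, 2 lower), against 5.94% of all genes. Against Sos2KO, 4 were called in Sos1/2DKO (6.14% of all genes) and 3 in Sos1KO (4.29%), all higher. Sos1KO against WT gave 0 of 44 in limma, against 0.620% of all genes. At an unadjusted p under 0.05 there were 5 of the 44 and 2158 of all 19505 genes. Sos2KO against WT gave 0 of 44, against 0% of all genes, with 4 of the 44 and 2711 of all genes at that unadjusted p. The median log2 difference of the 44 was 0.10 in Sos1KO and 0.10 in Sos1/2DKO, each against WT, beside 0.01 and 0.05 over all genes.

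A pair of genes that handle the precursors of retinoic acid were higher in Sos1/2DKO than in WT and Sos2KO. Rbp4, the plasma carrier of retinol, was at 8.73, 9.90 and 9.55 in Sos1/2DKO, 8.53, 8.58 and 6.77 in Sos1KO, 5.87, 6.14 and 7.07 in Sos2KO, and 5.41, 6.65 and 6.54 in WT. The Sos1/2DKO arrays stood above all others, and Sos1KO overlapped Sos2KO through its replicate 3. Its difference was 3.19 (SE 0.51, adjusted p = 0.00647 in limma) for Sos1/2DKO against WT and 1.76 (SE 0.51, adjusted p = 0.136) for Sos1KO against WT. Dhrs3, which reduces retinal back to retinol and is itself known to be induced by retinoic acid, was at 10.65, 10.40 and 10.56 in Sos1/2DKO, 9.73, 9.77 and 9.74 in Sos1KO, 6.71, 7.84 and 8.35 in Sos2KO, and 8.02, 9.16 and 8.78 in WT. No array of the groups without Sos1 overlapped an array with it. The Dhrs3 difference was 1.88 (SE 0.35, adjusted p = 0.0109 in limma) for Sos1/2DKO against WT, 2.90 (SE 0.35, adjusted p = 0.00259) for Sos1/2DKO against Sos2KO and 2.12 (SE 0.35, adjusted p = 0.0162) for Sos1KO against Sos2KO. For Sos1KO against WT it was 1.09 (SE 0.35, adjusted p = 0.194 in limma). The call of Dhrs3 in Sos1KO against Sos2KO was lost under 7 of 19 alternative settings, with adjusted p up to 0.365 in limma with the high-GC term. In Sos1/2DKO against WT it was lost without WT replicate 1 (1.56, adjusted p = 0.0556 in limma) and with the chondrocyte term (adjusted p = 0.118).

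Of the 6 receptor coregulators measured, 1 was called in Sos1/2DKO against WT, the coactivator Ncoa1, beside 5.94% of all genes. Against Sos2KO, 2 were called, Ncoa1 and the coactivator Ncoa2, both in Sos1/2DKO (6.14% of all genes) and in Sos1KO (4.29%). The same 2 were called over both Sos2 backgrounds (10.3%). Ncoa1 was at 7.78, 8.22 and 7.74 in Sos1/2DKO, 7.78, 7.54 and 7.83 in Sos1KO, 6.39, 6.64 and 6.91 in Sos2KO, and 6.63, 7.01 and 7.16 in WT. All arrays without Sos1 were above all arrays with it, and the difference was 0.98 (SE 0.19, adjusted p = 0.0142 in limma) for Sos1/2DKO against WT. This Ncoa1 call was lost within arrays without the spike-in, with the chondrocyte term and without WT replicate 1 (adjusted p up to 0.140 in limma). Against Sos2KO the Ncoa1 call was lost under 3 of 19 alternative settings in Sos1/2DKO and 7 of 19 in Sos1KO. Ncoa2 exceeded its Sos2KO level by 0.63 in Sos1/2DKO (adjusted p = 0.0342 in limma) and by 0.66 in Sos1KO (adjusted p = 0.0375), a call that was lost under 12 of 19 alternative settings in both comparisons. Fabp5, which carries retinoic acid to another nuclear receptor, was at 7.15, 7.39 and 8.22 in Sos1/2DKO and 8.66, 8.49 and 8.58 in WT (-0.99, SE 0.24, adjusted p = 0.0313 in limma).

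Among 11 measured target genes of retinoic acid, 1 was called higher and 1 lower in Sos1/2DKO than in WT, beside 5.94% of all genes called. The higher one, Rarres1, named for its response to retinoids, was at 7.01, 7.30 and 6.35 in Sos1/2DKO and 5.30, 4.76 and 6.0 in WT (1.53, SE 0.40, adjusted p = 0.0411 in limma), with 2 WT arrays below the guide to weak signal. Meis1, a homeobox gene of the proximal limb, was at 7.98, 8.35 and 7.41 in Sos1/2DKO and 8.97, 9.17 and 9.21 in WT (-1.20, SE 0.26, adjusted p = 0.0203 in limma). The calls of Fabp5, Rarres1 and Meis1 in Sos1/2DKO against WT were lost under 12, 13 and 7 of 19 alternative settings, for Meis1 also when any 1 of the WT arrays was left out (adjusted p 0.0638 to 0.0739 in limma). The other clearing enzymes, Cyp26a1 and Cyp26c1, and the carotenoid cleavage enzymes Bco1 and Bco2 gave no call, with a smallest adjusted p of 0.341 in limma (Bco2, Sos1/2DKO against Sos2KO). Cyp26a1, a strongly retinoic acid-induced gene, was at 3.76 to 4.51 in Sos1/2DKO, 4.03 to 4.18 in Sos1KO, 4.12 to 4.72 in Sos2KO and 3.87 to 4.33 in WT, below the guide to weak signal on all 12 arrays.

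**Figure D4:**
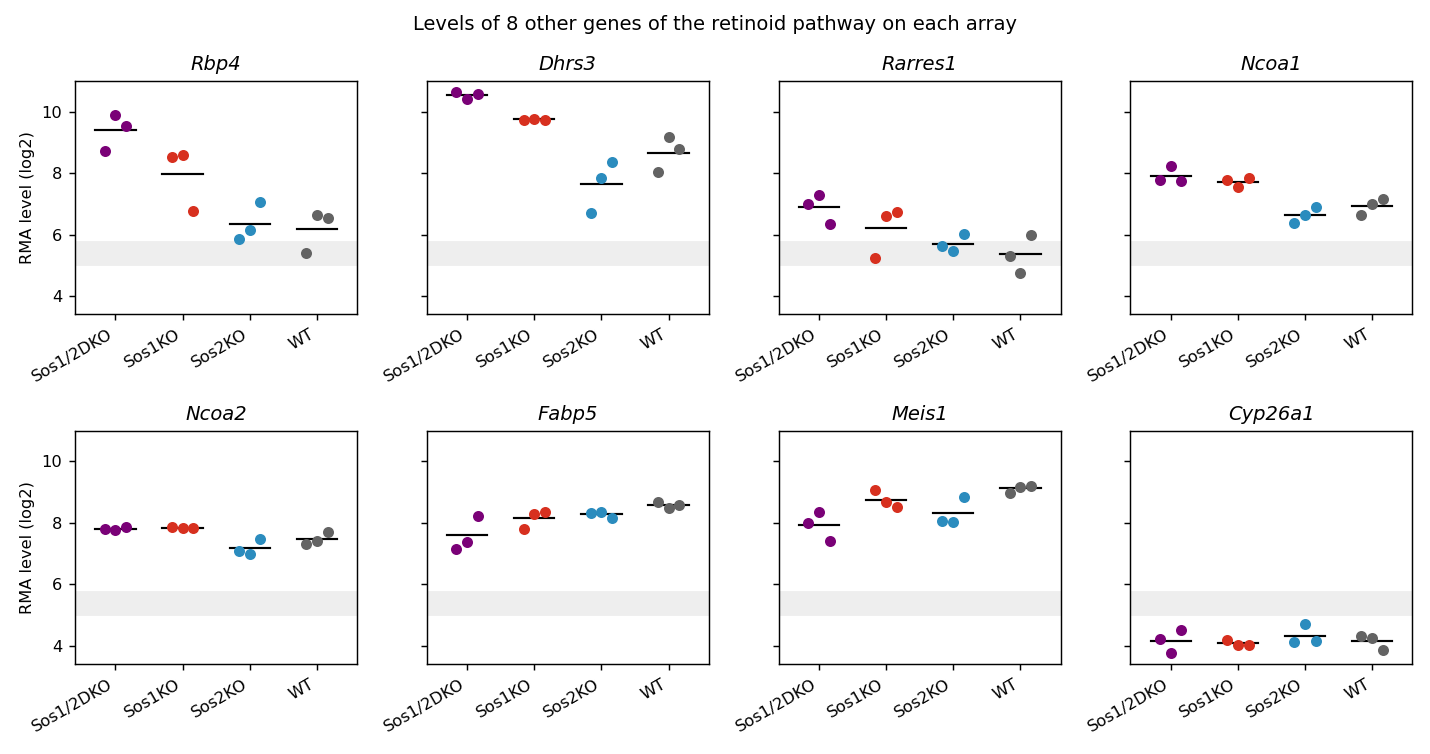
RMA level (log2, vertical axis) of 8 other genes of the retinoid pathway on the 12 arrays, with Sos1/2DKO, Sos1KO, Sos2KO and WT from left to right; points are arrays, lines are group means and the grey band is the range of the guide to weak signal (5.01 to 5.76). Rbp4, Dhrs3 and Ncoa1 are higher in the Sos1/2DKO arrays than in every WT array, and Cyp26a1 lies below the band on each array.

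Across the 12 arrays the 6 genes with the highest Pearson correlation with Crabp1, among 13113 named genes bright enough to rank, were Qtrt1 (r = 0.957), Arhgdib (0.949), Rbm19 (0.946), Fez1 (0.939), Fhl3 (0.937) and Nop2 (0.935). The 6 most opposite were Tgfb2 (r = -0.973), Setbp1 (-0.961), Fat4 (-0.960), Ginm1 (-0.958), Wls (-0.958) and Npr3 (-0.957). These genes were picked for that likeness, the 12 arrays share the 4 groups, and the values describe these arrays only. Tgfb2, a transforming growth factor beta ligand, was at 10.58, 10.95 and 10.83 in Sos1/2DKO, 10.17, 10.54 and 10.96 in Sos1KO, 8.26, 7.34 and 9.25 in Sos2KO, and 8.61, 9.94 and 9.55 in WT. Its lowest array, Sos2KO replicate 2, was the one with the highest Crabp1, and its highest WT array, replicate 2, was the WT array with the lowest. Qtrt1, part of a tRNA-modifying enzyme, was at 7.75, 7.54 and 7.55 in Sos1/2DKO, 7.91, 7.76 and 7.70 in Sos1KO, 8.52, 8.52 and 8.18 in Sos2KO, and 8.32, 8.0 and 8.12 in WT, a much smaller span than that of Crabp1. Among the other members, Aldh1a1 had r = -0.84 with Crabp1 over the 12 arrays and -0.33 within groups. Aldh1a1 thus ran opposite to Crabp1 mainly between the groups, whose Crabp1 levels led to the choice of these genes. For Aldh1a3 r was 0.48 over the arrays and -0.44 within groups.

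**Figure D5:**
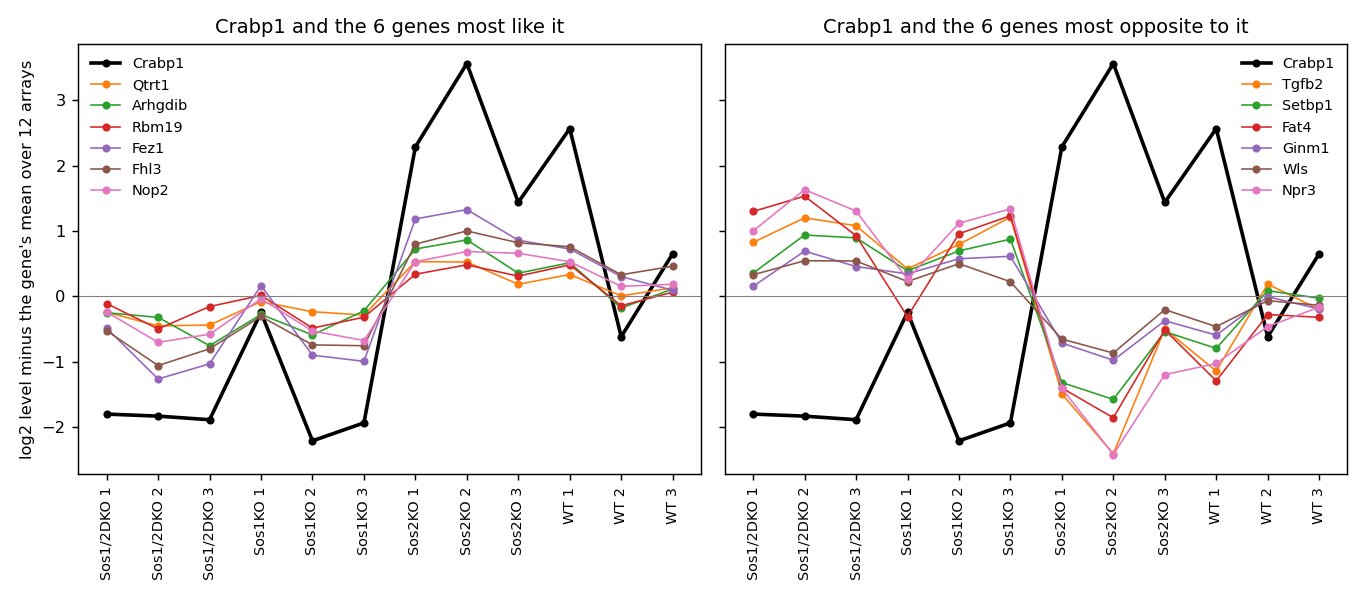
Log2 level minus the mean of the gene over the 12 arrays (vertical axis) for Crabp1 (black) with the 6 genes most like it (left panel) and the 6 most opposite to it (right panel), array by array; the lines only join the points of a gene. Crabp1 spans 5.77 on this log2 scale, and Tgfb2 and Npr3 are lowest on Sos2KO replicate 2, where Crabp1 is highest.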

How the data were processed

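RNA of 12 cultures was hybridised to Affymetrix expression arrays, per the labels. Per the submitters' processing notes, the authors made log2 values with RMA in R 3.6.3, and group differences from that deposited log2 table equal the fold changes of the authors' tables within 6.22e-09. The authors' deposited tables also hold an adjusted p-value and a limma t and B score per probe set, and, per the file headers, log10 p-values and log10 q-values of enrichment.

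Of 29129 probe sets, 19572 had 1 gene symbol and 9557 none. For 55 genes with several, the brightest probe set was kept, leaving 19505 genes. The fit used limma 3.58.1 (R 4.3.3) with 1 mean for each of the 4 groups together, leaving 8 residual degrees of freedom, moderated by empirical Bayes, with two-sided tests, Benjamini-Hochberg adjustment over all genes, and calls at an adjusted p under 0.05. Intervals are 95% intervals of that fit. The script was tested on simulated data. The number of arrays limits the precision, and RMA gives no detection call. The genome build of the arrays' annotation is not given in the sources used here.

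The members, the gene lists and the tests were chosen with earlier results of these data known. Named genes are the 9 members, every list gene that was called (up to 3 of a list with no call, by smallest adjusted p), and the 6 genes most like and most opposite to Crabp1 by Pearson correlation among genes with a mean at or above the 30th percentile. The markers were 65 genes in 9 lists, 60 of them measured. Replicate numbers gave no steady sign of pairing: the deviations of same-numbered arrays correlated between -0.35 and 0.30, over 0.1 in 6 of 18 pairs. With 3 arrays a group these correlations cannot settle whether such arrays share a day or litter, which the labels do not say.

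Alternatives were other scalings, a filter on dim genes, all probe sets, other priors, array weights, each pair of groups by itself, a block for the replicate number, terms for the spike-in, the high-GC background and the sex of the embryo (Y-linked genes), fits within arrays without the spike-in, a cutoff of 0.25 and each array left out. Added after seeing the data were a fit within arrays with the spike-in and a chondrocyte marker term. By the Y-linked genes all Sos1/2DKO arrays, WT replicate 1, Sos1KO replicate 2 and Sos2KO replicates 1 and 3 counted as male. The sex of the embryo thus differed in part between Sos1/2DKO and WT.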

Additional observations from a re-analysis of the deposited data

How the results depend on the processing

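Of the 72 differences of the 9 genes, 22 were those of Crabp1 and those with an unadjusted p under 0.05, from 6 of the genes. Under up to 23 alternatives their 446 values kept their direction except 3. These differences were picked on the same arrays, for a small p or as Crabp1, so a kept direction was likely beforehand. Crabp1 in Sos1/2DKO against Sos1KO came to 0.13 within arrays with the spike-in (1 array of each of these groups), and between -0.75 and 0.23 with 1 array left out. Crabp2 over both Sos2 backgrounds came to 0.25 with the chondrocyte marker term. The other 50 differences, among them all of Rarg, Aldh1a2 and Cyp26b1, gave 994 values, of which 0 were called in limma and 113 changed sign. The 362 values of the 18 differences of other retinoid genes kept their direction, and those differences were likewise picked because they were called.

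The number of the 9 genes called moved more. In Sos1KO against WT (1 gene) it was 2 at a cutoff of 0.25 and with array weights. It was 0 with the spike-in term, within arrays without the spike-in, with the embryo sex term and with the chondrocyte term, and 0 to 1 with 1 array left out. All genes called in that comparison ranged from 0 to 1680 over the alternatives at 0.05, beside 121. They ranged from 159 to 1799 in Sos1/2DKO against WT (1158), 131 to 1660 in Sos1/2DKO against Sos2KO (1197), 2 to 2540 in Sos1KO against Sos2KO (836), 368 to 2794 over both Sos2 backgrounds (2017), 0 to 720 in Sos2KO against WT (0), 0 to 10 in Sos1/2DKO against Sos1KO (1) and 0 to 1 in the interaction (0). In Sos1/2DKO against WT (2 genes) the number was 1 with the spike-in and sex terms, 0 within arrays without the spike-in and with the chondrocyte term, and 1 to 2 with 1 array left out; Aldh1a1 was kept each time an array was left out. In Sos1/2DKO against Sos2KO (1 gene) it was 3 at 0.25 and 0 with the chondrocyte term. In Sos1KO against Sos2KO (1 gene) it was 2 at 0.25, with cyclic loess, without dim genes and with array weights. It was 0 with 2 groups alone, with the spike-in, high-GC and chondrocyte terms and within arrays with the spike-in, and 0 to 1 with 1 array left out (0 without Sos1KO replicate 2 or 3 or Sos2KO replicate 1 or 2). Over both Sos2 backgrounds (2 genes) it was 0 with the chondrocyte term, and 3 without Sos1/2DKO replicate 3, where Crabp2 was called too (-1.18, adjusted p = 0.0356 in limma, beside -0.89 and 0.163). Fits with a term or with fewer arrays have fewer residual degrees of freedom; beyond that the cause was not tested. In the 3 comparisons with no call it was 0 under every alternative. With the replicate number as a block, Aldh1a3 in Sos1KO against WT had an adjusted p of 0.0425 in limma and Aldh1a1 in Sos1/2DKO against WT 0.0103, and the block changed no number of genes called among the 9.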

Other observations

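Outside the Aldh1a genes described above, 18 other aldehyde dehydrogenases were measured, a family chosen by symbol after a first look at the values. In Sos1/2DKO against WT 1 of them was called in limma, Aldh1a7 (2.57, adjusted p = 0.0444), beside 5.94% of all genes, and in Sos1/2DKO against Sos2KO 2, beside 6.14%, Aldh1a7 (2.69, adjusted p = 0.0364) and Aldh6a1 (1.12, adjusted p = 0.0415). Aldh6a1, a mitochondrial enzyme of valine breakdown, was at 7.17 to 8.22 in Sos1/2DKO, 7.63 to 8.0 in Sos1KO, 5.97 to 6.73 in Sos2KO and 6.21 to 7.01 in WT. Its groups without Sos1 did not overlap those with it, and over both Sos2 backgrounds the difference was 1.14 (SE 0.21, adjusted p = 0.00457 in limma). The median log2 difference of the 18 was 0.04 for Sos1/2DKO against WT, beside 0.05 over all genes.

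Of 9 fatty acid-binding proteins, relatives of Crabp1 and Crabp2, 1 was called in Sos1/2DKO against WT (Fabp5, whose call was lost under 12 of 19 alternative settings), beside 5.94% of all genes, and 0 in Sos1KO against WT in limma, beside 0.620%. Fabp4, the fatty acid carrier of adipocytes, was at 6.60 to 8.24 in Sos1/2DKO, 6.02 to 8.03 in Sos1KO, 5.32 to 6.67 in Sos2KO and 5.59 to 6.69 in WT, with overlapping groups and no call.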
